A study of Mus musculus with 6 samples.

Results

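P53 and 9 genes that regulate it or are regulated by it were read by 13 probes in erythroblasts from mice with 1 or no intact copy of the P38α gene. They are 10 of the 34761 gene and transcript names, and 13 of the 55681 probes, on the array. The members were the probes, leaving out control spots, that the array design assigns to Trp53, to the P53 regulators Mdm2 and Mdm4, and to the P53 targets Ccng1, Phlda3, Zmat3, Sesn2, Aen, Perp and Trp53inp1. The study had 3 P38α+/- mice, Mx1-Cre/P38α fl/+, and 3 P38α-/- mice, Mx1-Cre/P38α fl/fl, with 1 array each. Mx1-Cre is switched on by interferon, so that deletion is not limited to erythroid cells, and the P38α+/- controls carried Cre and 1 deleted allele too. All mice, male and female and 6 to 8 weeks old, received 3 injections of 300 µg PolyIC, rested for 6 weeks and were then given 1 dose of 100 mg/kg phenylhydrazine (PHZ), which lyses red cells. The mice had a C57Bl/6 background, and the sources used here do not give the sex of each animal. On day 4 after PHZ, CD71highTer119+ erythroblasts were sorted from the bone marrow, and 10 ng of RNA of each sample was amplified and hybridised to a 1-colour Agilent whole mouse genome array. The series was designed to ask how P38α acts in erythropoiesis under stress.

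P53 is a transcription factor that is kept scarce in resting cells and accumulates after DNA damage and other stresses. Mdm2, a ubiquitin ligase, marks P53 for degradation and is itself a P53 target, which closes a negative feedback loop. Mdm4, a relative of Mdm2 with little ligase activity of its own, binds P53 and blocks its activation domain. P38 kinases are among the kinases that can phosphorylate P53, and P53 is best known in erythroid cells for the arrest and death that follow faulty ribosome production. Much of the control of P53 acts on the protein, which these arrays do not measure.

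The probe sequences of Trp53 and of the dimmer Mdm4 probe are shown because the level of Trp53 rests on 1 probe, and because the direction of the dimmer Mdm4 probe depended on the scaling. The Trp53 probe lay at chr11:69404204-69404263 of mm9 on the plus strand, at bases 1187 to 1246 of its transcript. The dimmer Mdm4 probe lay at chr1:134888407-134888466 on the minus strand, at bases 1445 to 1504. Both read 5′ to 3′ along the transcript.
Trp53: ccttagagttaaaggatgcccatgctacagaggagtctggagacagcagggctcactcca
Mdm4: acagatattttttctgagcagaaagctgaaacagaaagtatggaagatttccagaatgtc

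Promoters were available for 7 of the 10 genes from RefSeq (GRCm38.p6), running from 250 bases before to 50 bases after the start of transcription. A match to the 10-base consensus half-site of P53, which reads the same on both strands, was found in the promoters of 4 genes, Trp53, Mdm2, Ccng1 and Aen, and in those of Mdm4, Phlda3 and Sesn2 there was none. Of all 32851 promoters in the same table, 8.36% held a match. That share is per promoter, while a member gene counts if any of its promoters matched. Bases outside this window were not searched, so a gene without a match here is not shown to lack a P53 site. The 30 bases around each match are shown, with the half-site in capitals, so that the matches can be read. Genes chosen as P53 targets may be tied to such sites by that choice, and the counts are given as a description. They lay at chr11:69580274-69580303 for Trp53 on the plus strand, at chr10:117710925-117710954 for Mdm2 on the minus strand, at chr11:40755452-40755481 for Ccng1 on the minus strand and at chr7:78895927-78895956 for Aen on the plus strand. A match is a description of letters and was not tested for binding.
Trp53: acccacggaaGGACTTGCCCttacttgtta
Mdm2: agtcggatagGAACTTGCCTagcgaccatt
Ccng1: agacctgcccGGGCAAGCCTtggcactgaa
Aen: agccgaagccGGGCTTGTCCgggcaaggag

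Levels are given as log2 intensity relative to the 75th percentile of the probes that stood well above background on all 6 arrays, so that 0 is that percentile. Log2 fold changes are P38α-/- minus P38α+/-. The median of all 18547 probes tested lay at -0.16 on this scale, and differences are also given relative to it. Each genotype had 3 mice, and their number limits the precision. By the file headers, P38α-/- 3 was read on slide 2 with its own scan date, and the other arrays on slide 1. What the slide adds to the values of P38α-/- 3 cannot be told apart from that mouse. The share of probes well above background ran from 36.1 to 53.1% in P38α+/- and from 28.5 to 35.9% in P38α-/-, with P38α+/- 1 the highest and P38α-/- 1 the lowest. All 10 erythroblast markers on the array, of 11 listed, were well above background on every array, and their mean level ran from 4.42 to 4.67 in P38α+/- and from 4.41 to 4.73 in P38α-/-. The 9 neutrophil markers were detected on every array too, with mean levels of 2.52 to 4.14 in P38α+/- and of 1.49 to 2.10 in P38α-/-. The 9 monocyte or macrophage markers had mean levels of -5.26 to -3.48 and of -6.13 to -4.51. In bulk samples fewer cells of a type and less RNA per cell cannot be told apart. Mapk14, the gene of P38α, was not lower in the arrays labelled P38α-/-, with log2 fold changes of 0.54 (adjusted p = 0.185, limma) and 0.01 (adjusted p = 0.991) by its 2 probes, and the genotypes below are those of the labels. Whether these probes lie inside the deleted part of the gene is not given in the sources used here, and a probe outside it checks nothing.

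Of the 13 probes, 11 could be tested, for 8 genes, since the scanner software placed them well above background in all 3 mice of 1 genotype or of both. No member was called at an adjusted p of at most 0.05 and a fold of at least 2 (0 of 11 probes, limma), where 0.162% of all probes tested were called, 30 probes of 29 genes. With the methods' t-test and Benjamini-Hochberg adjustment no member was called either. At an unadjusted p under 0.05, 3 member probes passed in limma, beside 21% of all probes. The 3 were the probe of Ccng1 and both probes of Mdm4, of which the dimmer passed the filter only through P38α+/-. By array values, 2 probes had all P38α-/- arrays above all P38α+/- arrays, where 6.93% of all probes did, 3 had all of them below, where 21% of all probes did, and 6 overlapped. The 3 below include the dimmer Mdm4 probe. The median log2 fold change of the 11 probes was 0.15, 0.31 above the median of all probes.

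**Figure D1:**
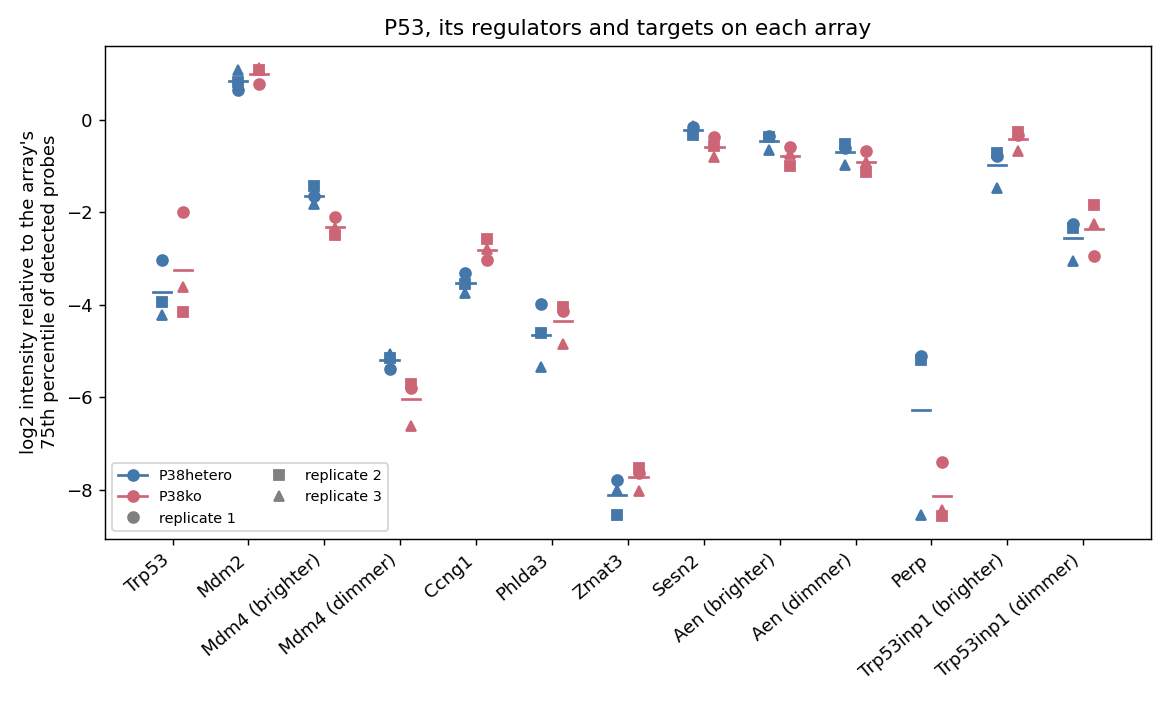
Level of each member probe on each array (y axis, log2 intensity relative to the array's 75th percentile of detected probes), by probe (x axis), with P38hetero arrays (P38α+/-) in blue and P38ko arrays (P38α-/-) in red. Symbols give the replicate number and bars the mean of 3 arrays. The groups stand apart for both Mdm4 probes, Ccng1, Sesn2 and the brighter Trp53inp1 probe, and Perp is split within P38hetero.

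Trp53, which encodes P53 itself, was read by 1 probe printed in 2 spots. Its level was -3.04, -3.94 and -4.22 in P38α+/- 1 to 3 and -1.99, -4.15 and -3.63 in P38α-/- 1 to 3. P38α-/- 1 was the highest array and P38α+/- 1 the next, and the genotypes overlapped. The log2 fold change was 0.48 ± 0.60 (SE, n = 3 and 3; adjusted p = 0.694, limma), with a 95% interval from -0.97 to 1.93, which a 2-fold higher level would fall within. Without P38α-/- 1 the log2 fold change was -0.15 (adjusted p = 0.867), so its sign rested on that array. Before scaling, the log2 intensity was 6.61, 6.40 and 6.31 in P38α+/- and 7.54, 6.47 and 6.78 in P38α-/-. The percentile subtracted from it was lowest in the same 2 arrays, at 9.66 in P38α+/- 1 and 9.53 in P38α-/- 1, against 10.35 to 10.62 in the other 4. The part of the scaling in the high levels of these 2 arrays was not tested.

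Mdm2 (chr10:117126010-117126069 of mm9), the ligase and feedback target, read 0.64, 0.81 and 1.06 in P38α+/- and 0.78, 1.06 and 1.11 in P38α-/-. The genotypes overlapped over nearly the same range, and the spread within each exceeded the gap between them. The log2 fold change was 0.15 ± 0.18 (SE, n = 3 and 3; adjusted p = 0.695, limma), with a 95% interval from -0.30 to 0.59. A 2-fold difference in either direction lay outside this interval. Within the numbered pairs of mice the differences were 0.14, 0.25 and 0.05, all above 0.

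Mdm4, the inhibitor of the P53 activation domain, was lower in all 3 P38α-/- arrays by both of its probes, and neither difference passed the adjusted threshold. The brighter probe (chr1:134886426-134886485) read -1.66, -1.45 and -1.83 in P38α+/- and -2.12, -2.49 and -2.34 in P38α-/-. The log2 fold change was -0.67 ± 0.18 (SE, n = 3 and 3; adjusted p = 0.139, limma), a 1.59-fold lower level, with a 95% interval from -1.11 to -0.24. The dimmer probe, nearer the 5′ end of the transcript and printed above, read -5.38, -5.15 and -5.07 against -5.80, -5.73 and -6.62. It was well above background on 3 P38α+/- arrays and on 1 P38α-/- array, so it passed the filter only through P38α+/-. Its difference of -0.85 ± 0.27 (adjusted p = 0.167, limma) leans on values near the background. Without P38α-/- 3, its lowest array and the only one on slide 2, the difference was -0.56. With all arrays, the differences of the brighter and the dimmer probe relative to the median probe were -0.51 and -0.69. Quantile normalization gave 0.13 for the dimmer probe and -0.54 for the brighter one, so the direction of the dimmer probe depended on the scaling. With array weights, which count arrays with a large residual spread less, the dimmer probe was called at -1.25 (adjusted p = 0.0272), in a setting that called 10% of all probes. The brighter Mdm4 probe, at -0.79, and Ccng1, at 0.77, also passed the adjusted threshold there (adjusted p = 0.0223 for each, limma) and stayed under a 2-fold difference.

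Ccng1, cyclin G1, a P53 target whose protein brings the phosphatase PP2A to Mdm2, was higher in all 3 P38α-/- arrays. Its probe (chr11:40562427-40562486) read -3.31, -3.56 and -3.75 in P38α+/- and -3.03, -2.59 and -2.81 in P38α-/-, with a gap between the genotypes. The log2 fold change was 0.73 ± 0.19 (SE, n = 3 and 3; adjusted p = 0.136, limma), a 1.66-fold higher level, with a 95% interval from 0.26 to 1.20. Relative to the median probe it was 0.89, and within the numbered pairs it was 0.28, 0.97 and 0.94. When arrays were scaled to the 75th percentile of all probes, whether detected or not, Ccng1 was called at 1.21 (adjusted p = 0.0383), the only member called there, beside 4.63% of all probes. That percentile was 4.99 in P38α-/- 1 and 5.82 to 6.13 in the other arrays, and the median of all tested probes shifted to 0.32.

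**Figure D2:**
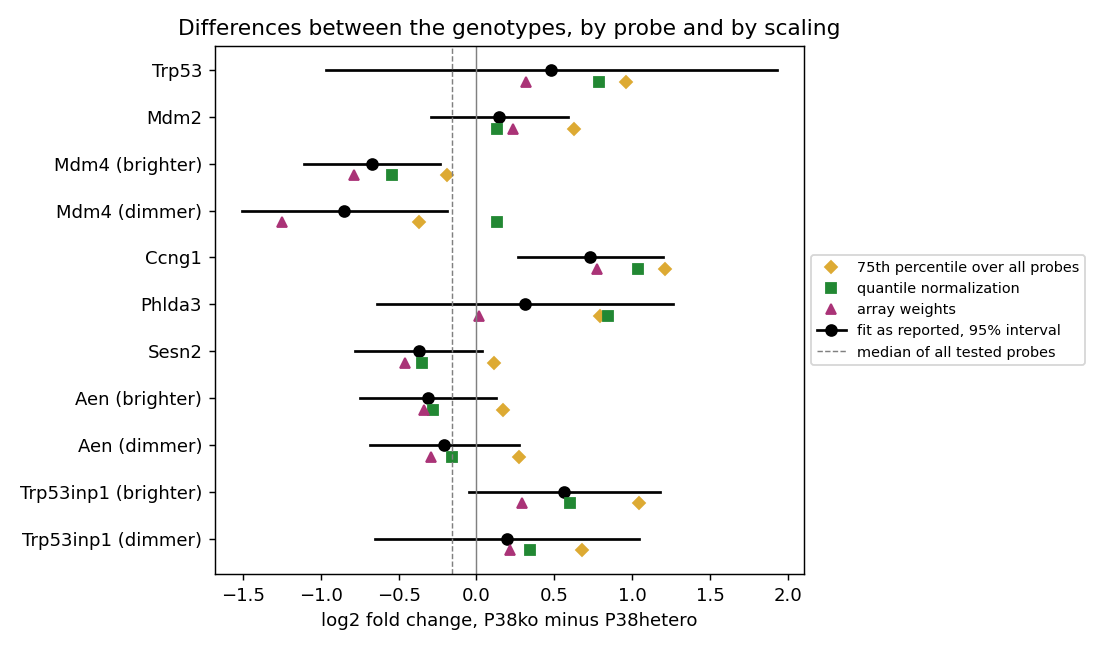
Log2 fold change (x axis, P38ko minus P38hetero) of the 11 tested member probes (y axis), with black points and 95% intervals from limma and coloured symbols for 3 other settings. The intervals of Ccng1 and both Mdm4 probes leave out 0, the other 8 include it, and scaling to the 75th percentile of all probes moves every probe to the right.

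The difference between Ccng1 and Mdm4 within an array does not depend on how that array is centred. For the brighter Mdm4 probe, Ccng1 minus Mdm4 was -1.66, -2.12 and -1.92 in P38α+/- and -0.92, -0.10 and -0.46 in P38α-/-, a change of 1.40. This pair was chosen after its values were seen, as genes that stood apart in opposite directions, so that the separation follows from the choice and was not tested. The size of the difference in 1 array has no meaning of its own, since probes differ in brightness.

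Sesn2, a stress-induced protein that restrains the growth kinase complex mTORC1, was lower in all 3 P38α-/- arrays by a small margin. It read -0.17, -0.34 and -0.14 in P38α+/- and -0.39, -0.57 and -0.80 in P38α-/-. The log2 fold change was -0.37 ± 0.17 (SE, n = 3 and 3; adjusted p = 0.272, limma), and it was 0.11 when scaled to the 75th percentile of all probes. Without P38α-/- 3, the lowest array for Sesn2 and the only one on slide 2, it was -0.26. Trp53inp1, a nuclear protein induced by P53 that takes part in autophagy and cell death, was higher in all 3 P38α-/- arrays by its brighter probe. That probe (chr4:11101174-11101233) read -0.78, -0.71 and -1.47 in P38α+/- and -0.33, -0.27 and -0.68 in P38α-/-, a log2 fold change of 0.56 ± 0.25 (adjusted p = 0.267). Within the numbered pairs its differences were 0.46, 0.45 and 0.79. The dimmer Trp53inp1 probe (chr4:11092530-11092589), nearer the 5′ end, read -2.26, -2.35 and -3.06 against -2.96, -1.85 and -2.27, and overlapped at 0.20 ± 0.35 (adjusted p = 0.794). The probes of Trp53inp1 therefore stood apart by genotype in 1 case of 2.

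Aen, an exonuclease that enhances apoptosis, and Phlda3, which competes with the kinase Akt for membrane lipids, overlapped between the genotypes. The 2 Aen probes lie 10 bases apart on chromosome 7 and share most of their target, so they are not separate evidence. The brighter one read -0.36, -0.38 and -0.67 in P38α+/- and -0.59, -1.005 and -0.75 in P38α-/-, a log2 fold change of -0.31 ± 0.18 (SE, n = 3 and 3; adjusted p = 0.372, limma). The other gave -0.21 ± 0.20 (adjusted p = 0.593), and both turned positive, at 0.17 and 0.28, with the percentile of all probes. Phlda3 read -3.99, -4.62 and -5.36 in P38α+/- and -4.13, -4.05 and -4.85 in P38α-/-. Its log2 fold change was 0.31 ± 0.39 (adjusted p = 0.697) and went to -0.040 without P38α+/- 3, its lowest array.

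Perp and Zmat3 did not pass the filter on dim probes and were not tested. Zmat3, a zinc finger protein that binds RNA, did not stand well above background in a single mouse, with values of -8.56 to -7.78 in P38α+/- and -8.03 to -7.53 in P38α-/-. Perp, a membrane protein of cell junctions that P53 can induce in apoptosis, was well above background on P38α+/- 1 and 2 and on no other array. It read -5.11, -5.20 and -8.56 in P38α+/- and -7.40, -8.57 and -8.45 in P38α-/-, and no fold is given because the bound that the background sets is below 1. The same P38α+/- 1 and 2 arrays had the 2 highest mean levels of neutrophil, monocyte or macrophage, B cell and T or NK cell markers, and the highest shares of probes well above background, at 53.1 and 38.2%. For neutrophil markers these were 3.31 and 4.14, against at most 2.52 on the other arrays, for monocyte or macrophage markers -3.75 and -3.48, against at most -4.51, and for the 5 T or NK cell markers -3.64 and -4.63, against at most -5.07. Monocyte or macrophage markers well above background numbered 7 and 8 on these 2 arrays and 5 to 7 on the others. For T or NK cell markers the counts were 4 and 3, against 2. Megakaryocyte or platelet markers read -3.91 and -4.31, against at most -4.38, with 3 detected on every array. The B cell markers had mean levels of -3.91 and -3.66 over 7 genes, 6 of them well above background on each, against -7.56 to -6.34 and 1 to 3 genes on the other 4 arrays. Ms4a1 read -4.73 and -3.29 on those 2 arrays and -8.49 to -5.98 on the others. The part of other cell types, or of the detection on these arrays, in the Perp signal was not tested.

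**Figure D3:**
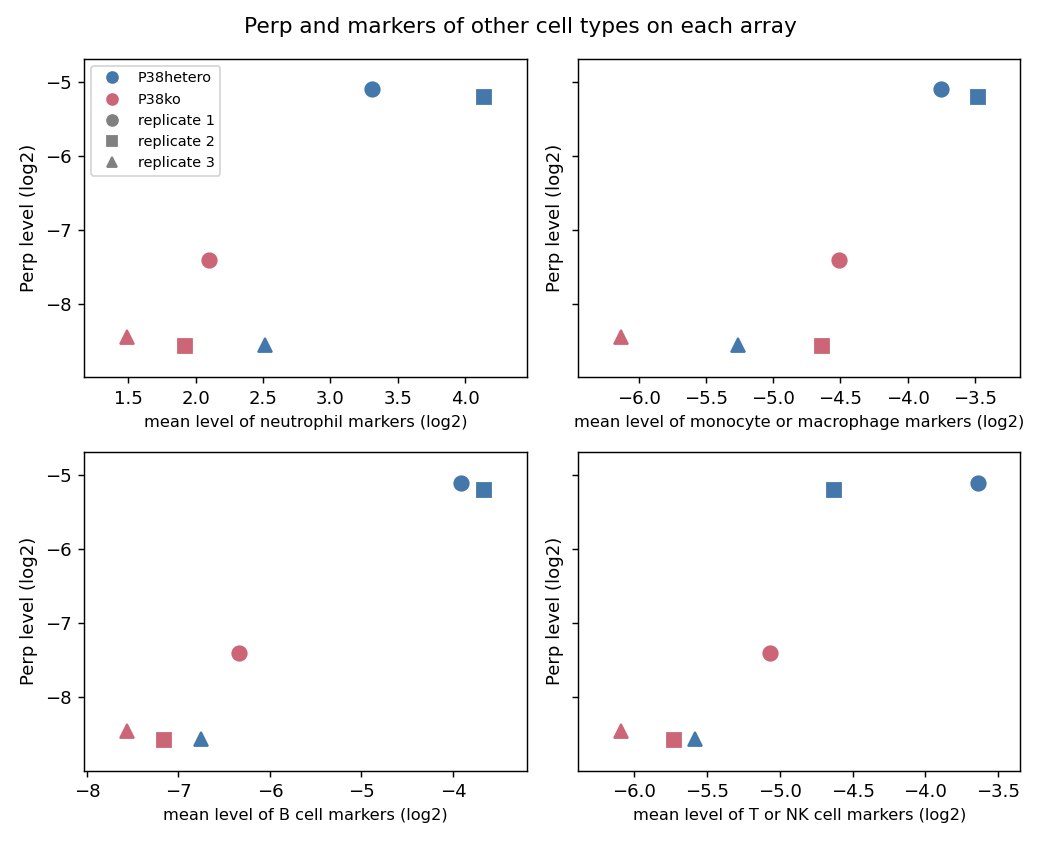
Level of Perp (y axis, log2 intensity relative to the array's 75th percentile of detected probes) against the mean level of the neutrophil, monocyte or macrophage, B cell and T or NK cell markers (x axes, same scale), with 1 point per array, P38hetero in blue, P38ko in red and symbols for the replicate number. P38hetero 1 and 2 stand at the upper right of each panel, at -5.11 and -5.20 for Perp, and the other 4 arrays lie between -8.57 and -7.40.

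The wider pathway was read through 40 other P53 targets, 28 other regulators and 2 relatives of P53, by the brightest tested probe of each gene. Of the 40 targets 29 could be tested and none was called in either direction (limma), with 10 at an unadjusted p under 0.05 (34.5%, beside 20% of all genes). Among these 10, Plk3, Tap1 and Polk passed the filter only through P38α+/-, where they were higher. The list was written with earlier results of these data known. Their median log2 fold change was -0.03, 0.13 above the median probe, beside -0.14 for the brightest probes of all 14025 genes tested, of which 25 were called and 2805 had an unadjusted p under 0.05. In 4 of the 29 targets (13.8%) all P38α-/- arrays were higher, beside 7.44% of all genes, and in 5 (17.2%) all were lower, beside 19.9% of all genes. Plk3 and Polk were among these 5. The 3 largest fitted differences were those of Plk3, a stress kinase, Xpc, which recognises DNA lesions for excision repair, and Ddit4, an inhibitor of mTORC1.

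Plk3 read -3.68, -2.96 and -5.31 in P38α+/- and -5.74, -6.91 and -7.67 in P38α-/- (adjusted p = 0.130, limma). It was well above background on all 3 P38α+/- arrays and on no P38α-/- array. It thus passed the filter only through P38α+/-, and its fitted difference has no exact size. Against the background of the P38α-/- arrays, the mean of these mice was at least 4.72-fold lower in P38α-/-, a bound that leaves out the spread between mice. That bound sets the higher, per array, of the lowest signal among detected probes and the value of the probe itself against the mean of P38α+/-. Xpc, well above background on all 6 arrays like Ddit4, read -2.95, -1.70 and -3.37 against -4.53, -4.36 and -4.67 (log2 fold change -1.85 ± 0.43, adjusted p = 0.111). Ddit4 read -2.77, -2.14 and -1.33 against -0.54, -0.23 and -0.24 (1.74 ± 0.36, adjusted p = 0.102). All 3 genes stood apart between the genotypes, 2 of them lower and 1 higher in P38α-/-, and in Plk3 and Xpc P38α+/- 2, the array with the most neutrophil and B cell marker signal, was the highest. The part of those cells in these differences was not tested.

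Of the remaining targets, Gadd45a, Bbc3, Cdkn1a, Sesn1, Cd80, Polk and Ercc5 are named after their values were seen. Gadd45a, which responds to DNA damage and activates stress kinases, read 0.86, 0.84 and 0.84 in P38α+/- and 1.59, 1.78 and 1.72 in P38α-/- (0.85 ± 0.14, adjusted p = 0.0732, limma). Bbc3, the death effector PUMA, read -0.70, -0.86 and -0.85 against -0.11, -0.07 and 0.05 (0.76 ± 0.14, adjusted p = 0.0867). Both stood apart in the direction of Ccng1, as did Sesn1 at 0.48 ± 0.20 (adjusted p = 0.229, limma). Cd80 at -0.80 ± 0.25 (adjusted p = 0.157), Polk at -0.72 ± 0.23 (adjusted p = 0.162) and Ercc5 at -0.58 ± 0.19 (adjusted p = 0.173) stood apart in the other direction. The Polk signal cleared the background flag in only 2 P38α-/- mice, so the size of its difference rests in part on dim values. Of the 29 targets tested, 4 stood apart higher and 5 lower. Cdkn1a, the cell cycle inhibitor p21, overlapped at 0.64 ± 0.41 (adjusted p = 0.418).

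Of the 28 other regulators 25 could be tested and none was called in either direction (limma), with 2 at an unadjusted p under 0.05 (8%, beside 20% of all genes) and a median of -0.03. In 2 of them (8%) all P38α-/- arrays were higher and in 4 (16%) all were lower, beside the 7.44% and 19.9% of all genes. The largest differences were those of Atm, the kinase that signals DNA breaks, at -1.02 ± 0.47 (adjusted p = 0.279) and well above background on 2 of 3 P38α-/- arrays, Ppp1r13b, which encodes the P53 cofactor ASPP1, at 0.87 ± 0.28 (adjusted p = 0.168), and Sirt1, a deacetylase of P53, at -0.58 ± 0.20 (adjusted p = 0.187). In each of these 3 the genotypes did not overlap. The relatives Trp63 and Trp73 differed by 0.44 ± 0.26 (adjusted p = 0.389) and 0.25 ± 0.27 (adjusted p = 0.648) and overlapped.

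The genes whose levels followed those of 2 members most closely were sought by Pearson's r over the 6 arrays, among 11720 genes well above background on all of them. For Trp53 the closest named genes were Teddm2 and Acat2, each with r = 0.99, beside 3 probes to transcripts without a gene symbol, and 530 genes had r of at least 0.9. For Ccng1 they were Mbp, Mzt2, Alg2 and Mrpl22, with r from 0.98 to 0.99, beside 1 such probe, and 143 genes had r of at least 0.9. The 6 points share their arrays and their scaling. Trp53 read -1.99 on P38α-/- 1 and -4.22 to -3.04 on the other arrays, so its r leans on that array. How many genes a typical gene reaches at this r was not computed.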

How the data were processed

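RNA of 6 samples, 3 per genotype by the labels, was read on 1 array each. The deposited intensity values, per the file headers, came from Agilent Feature Extraction 10.7.3.1, background-subtracted within each array, with probe coordinates on mm9. Control spots and spots with an outlier flag were left out and spots of 1 probe averaged. The log2 intensity was centred on each array's 75th percentile, taken over the 15150 probes that passed this flag of the scanner software on all 6 arrays. The flag marks a signal well above background, and probes with it on all 3 arrays of a genotype were tested with limma 3.58.1 in R 4.3.3, unpaired, with Benjamini-Hochberg adjustment over 18547 probes. Symbols were updated through RefSeq. The test was run on simulated data with noise drawn independently for each probe and array and with planted changes larger than those of the members. The simulation therefore does not cover effects shared by arrays or pairs, or small changes.

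The members and lists were chosen with earlier results of these data known. All probes of members are named, and of the other lists the called genes or, without any, the 3 with the largest difference, plus genes said to be chosen later. The paired structure was described and not tested. Deviations from the genotype means had correlations of 0.54, 0.31 and 0.42 for arrays that share a replicate number and of -0.48 to 0.18 for the rest. The 3 deviations of a genotype sum to 0, so higher correlations for shared numbers go with lower ones for the rest by construction. The series text speaks of pairs of mice. The authors' normalized intensity table, of which only 1 column, that of P38α-/- 2, did not rank as its scanner values did (Spearman 0.898), was used as an alternative. Other alternatives changed the scaling, the background correction, the filter on dim probes, the test, the weights of arrays, the replicate or slide block and the arrays included.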

Additional observations from a re-analysis of the deposited data

How the results depend on the processing

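Of 18 alternatives (17 for the dimmer Mdm4 probe), 4, both changes of the filter, the replicate block and the methods' t-test, cannot change a fold, and the slide block repeats leaving out P38α-/- 3. Across the other 13, the probes of Ccng1, Mdm2, the brighter Mdm4 probe and the brighter Trp53inp1 probe kept their direction. Ccng1 ranged from 0.53 to 1.21 and the brighter Mdm4 probe from -0.79 to -0.19. Reversals came with the 75th percentile of all probes (Aen 0.17 and 0.28, Sesn2 0.11), with quantile normalization and the authors' normalized values (dimmer Mdm4 probe 0.13 and 0.12), and when 1 array was left out. Leaving out each array in turn, Trp53 ranged from -0.15 (without P38α-/- 1) to 0.93, Phlda3 from -0.040 (without P38α+/- 3) to 0.64 and the dimmer Trp53inp1 probe from -0.059 (without P38α-/- 2; -0.057 without P38α+/- 3) to 0.50. The causes were not tested.

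Members called were 0 except for 1 gene each with the percentile of all probes (Ccng1) and with array weights (Mdm4). In the other P53 lists, with 29 targets, 25 regulators and 2 relatives tested, 6 genes were called by their brightest probe with the percentile of all probes. That setting called 778 of all 14025 genes tested, counted by any probe, and 4.63% of all probes. The count of genes called over all probes, 29, was 778 with the percentile of all probes, 1647 with array weights, 12 with quantile normalization, 8 with spike-in centring, 17 with normexp, 0 without the filter on dim probes (5.92% of probes at an unadjusted p under 0.05, limma), 62 with probes well above background on all arrays, 11 with the authors' values, 0 with the slide as a block (13.6% at an unadjusted p under 0.05), 2 with the methods' t-test and, chosen after seeing the data, 109 with centring on the median. With the replicate block, which uses the pairs, 67 genes and no member were called. The lowest adjusted p of the members there were 0.106 for the brighter Trp53inp1 probe, 0.113 for the brighter Mdm4 probe and 0.118 for Ccng1 (limma). Without 1 array the count was 0 to 100, and no member was called. The share of called probes that were higher was 76.7% as reported, 56.5% with the percentile of all probes, 91.7% with quantile normalization, 100% with normexp and with the authors' values, 25% with spike-in centring, 15.2% with array weights, 29.0% with the replicate block (18 genes higher, 49 lower) and 37.5% without P38α+/- 3 (36 higher, 64 lower). The median probe, at -0.16 as reported, moved to 0.32 with the percentile of all probes, 0.06 with quantile normalization and with the authors' values, 0.03 with centring on the median and -0.0031 with spike-in centring. Signals near background, as for Perp, Zmat3 and the dimmer Mdm4 probe, limit what can be read.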
